A study of Mus musculus with 9 samples.

Results

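The amino acid transporter genes described here are the members of 7 solute carrier families (Slc1, Slc3, Slc6, Slc7, Slc36, Slc38 and Slc43). They were picked by gene symbol from a table of read counts per gene, with Slc7a2 and Slc7a11 left out of the Slc7 family. Earlier results of these data were known when the set was chosen. The rule matched 62 of 22001 gene identifiers. Of these, 61 belong to the families, and the last, Slc7a6os, is a neighbour on the opposite strand of Slc7a6 that matched only by its name. The counts came from RNA sequencing of macrophages, the tissue phagocytes, that were grown from the bone marrow of C57BL6 mice. There were 3 groups of 3 libraries, all collected after 6 h. The Pam3CSK4 and 3SL group (codes A2plus, B2plus and C2plus) is labelled as having had 100 µg/ml of Pam3CSK4, a synthetic lipopeptide that activates Toll-like receptors, with 100 µl/ml of 3SL. From the series title 3SL is taken to be 3'-sialyllactose, a milk oligosaccharide, and since its dose is stated as a volume its amount is not known. The Pam3CSK4 group (D1, D2 and D3) is labelled as having had Pam3CSK4 alone, and the untreated group (A2, B2 and C2) as having had PBS. Sample titles read Pamc4-3SL for the Pam3CSK4 and 3SL group but Pamc3 for the Pam3CSK4 group, so titles and stated ligand differ. The labels give no genotype other than the strain, and neither the age nor the sex of the animals, and nothing in them says that the replicates are separate cultures or animals. The spread that the p-values below measure is the spread among these samples only, and it may be technical.

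The inflammatory genes went against the labels, so each group is called by its label and no direction below is to be read as an effect of the named compound. Il1b, which encodes interleukin-1 beta, averaged 8136 CPM in the 3SL-labelled libraries, 6.23 CPM in the Pam3CSK4-labelled libraries and 10160 CPM in the untreated-labelled libraries (n = 3 each). CPM is the count scaled to a fixed library size after TMM scaling. Tnf, the tumour necrosis factor gene, averaged 1267 CPM, 18.4 CPM and 1704 CPM in the 3SL-labelled, Pam3CSK4-labelled and untreated-labelled groups. Nos2, the inducible nitric oxide synthase gene, averaged 96.4 CPM, 0.246 CPM and 155 CPM in the same order of groups. The low level of these genes was in the libraries labelled Pam3CSK4. These libraries also carry another code letter (D) than the others (A, B and C), and what that letter stands for cannot be told apart from the treatment label.

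Total counts ran from 7472482 to 43980309 per library, so that 3 counts correspond to between 0.0746 and 0.422 CPM. Replicates differed beyond sampling noise (chi-square over degrees of freedom 1.85 to 3.01), so each was counted as its own sample. All 8 macrophage markers were detected and tested, with a summed level of 23190 to 23820 CPM in the 3SL-labelled, 16150 to 16600 CPM in the Pam3CSK4-labelled and 24010 to 24520 CPM in the untreated-labelled libraries. The 6 neutrophil markers summed to 436 to 489 CPM, 289 to 394 CPM and 547 to 577 CPM in the same order of groups. The 4 stromal markers summed to 10.4 to 13.5 CPM, 3.29 to 3.62 CPM and 14.1 to 16.1 CPM. Dendritic cell, lymphocyte, and erythroid and mast cell markers summed to at most 4.75, 1.57 and 5.35 CPM in any library. Of the 6 neutrophil markers Ly6g had at most 5 counts in any library, while the other 5 had enough counts to be tested. For Pam3CSK4-labelled over untreated-labelled libraries 6 macrophage markers were called lower and 2 higher, 4 of 5 tested neutrophil markers were lower and both tested stromal markers were lower. Over all tested genes 35.9% were called lower and 39.0% higher in that comparison, by the test given below. The marker sums move with the groups, and their part in the results was not tested. In bulk RNA, fewer cells of a type and less RNA per cell cannot be told apart.

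Amino acid transporters fall into a few working types. Exchangers of the Slc7 family (the light chains) reach the cell surface bound to the heavy chain encoded by Slc3a2 and swap an amino acid outside the cell for one inside it. Sodium-coupled carriers of the Slc1, Slc6 and Slc38 families instead concentrate glutamine, small neutral amino acids, glutamate, taurine, creatine or betaine, while Slc43 carriers let large neutral amino acids pass down their gradient. Members of the Slc36 and Slc38 families on lysosomes release amino acids from degraded protein and take part in signalling to the growth kinase complex mTORC1. In macrophages such carriers supply arginine to nitric oxide synthase and arginase, and glutamine to energy metabolism.

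Of the 62 genes, 29 had enough counts to be tested, 28 of them transporters, out of 11469 genes tested in all. A gene was called higher or lower where the adjusted p of edgeR's quasi-likelihood test (Benjamini-Hochberg over all tested genes) was below 0.05. For Pam3CSK4-labelled over untreated-labelled libraries 12 of the 29 were called higher, where 39.0% of all tested genes were, and 8 were called lower, where 35.9% were. At least 2-fold higher were 5 (13.2% of all tested genes) and at least 2-fold lower were 2 (10.8%). For 3SL-labelled over Pam3CSK4-labelled libraries 10 were called higher (34.7% of all tested genes) and 12 lower (36.8%). Of these, 2 were at least 2-fold higher (10.5%) and 6 at least 2-fold lower (12.5%). For 3SL-labelled over untreated-labelled libraries 1 was called higher (3.83%) and 2 lower (5.11%), and none passed 2-fold in either direction (0.113% higher and 0.0610% lower over all genes). The 3 comparisons share libraries pair by pair, so each is given with its own values. Groups without overlap were common: 20, 21 and 9 of the 29 members in these comparisons, beside 76%, 73.1% and 24% of all tested genes. The median log2 change of the tested members was 0.10, -0.02 and -0.01 in these comparisons, beside 0.03, -0.02 and -0.00 over all tested genes. The counts of members called in each direction are near those shares of all genes, and the transporter families as a whole are not marked out by them. The results below are given by family and by gene, and the counts within a family are small.

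**Figure D1:**
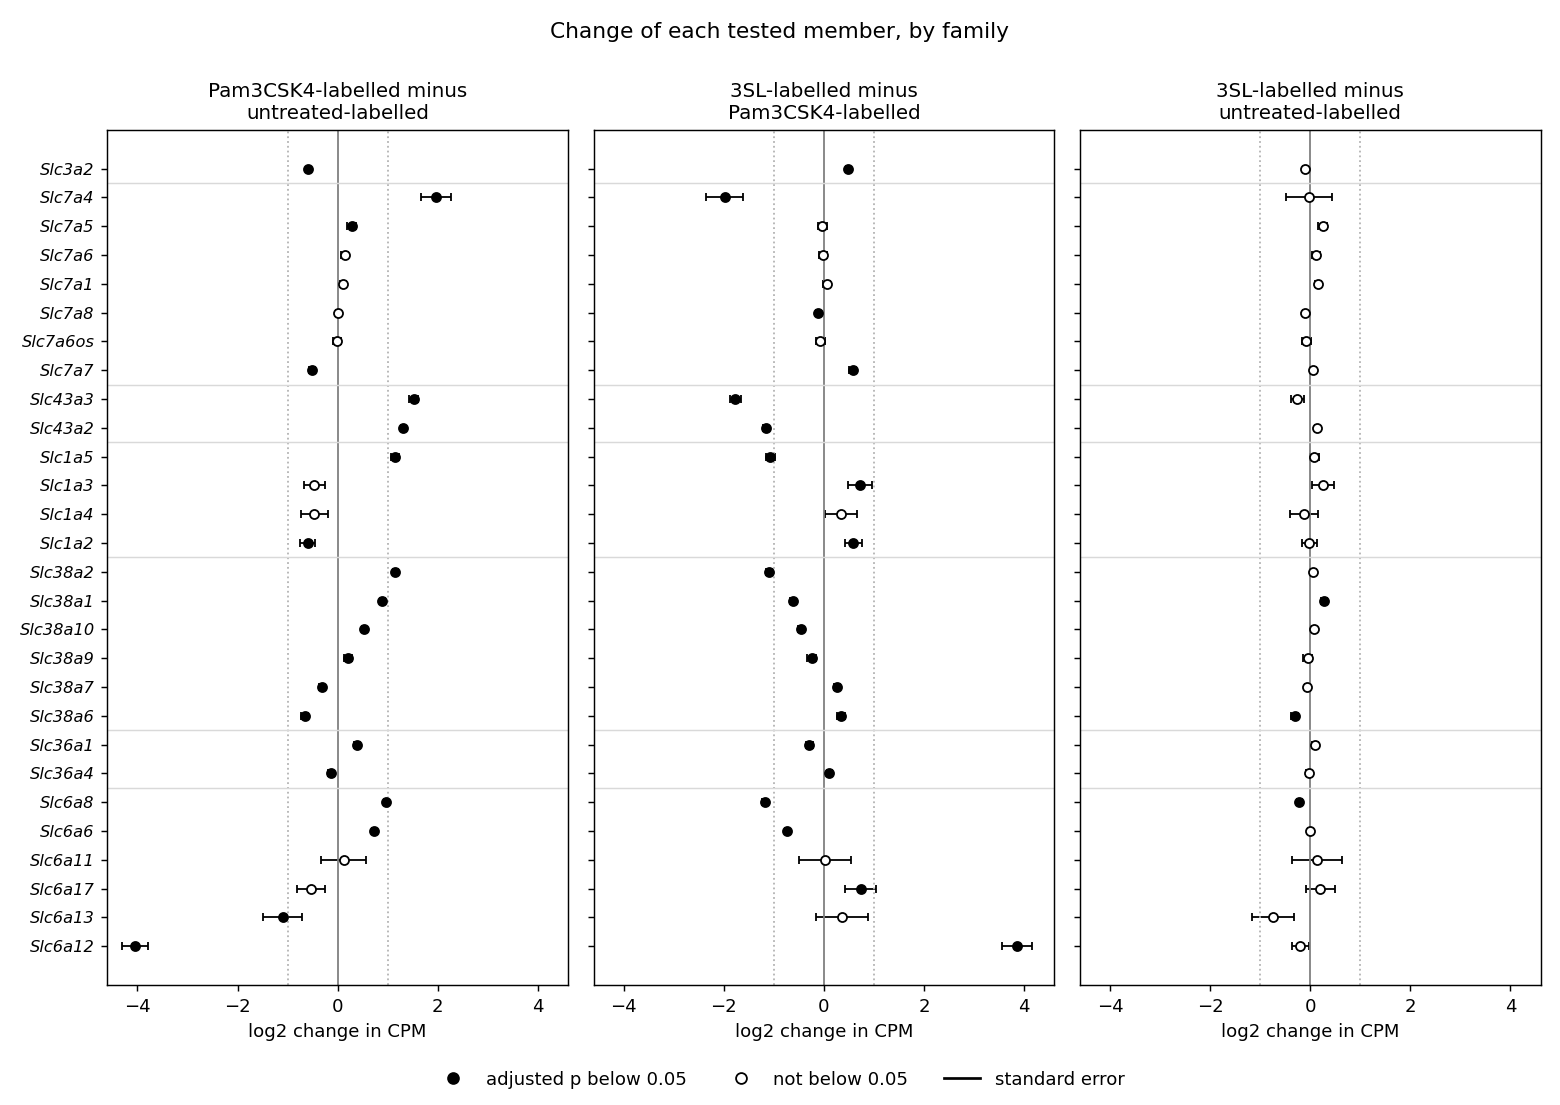
Log2 change (x axis) of 28 tested genes (rows, ordered by family) in the 3 comparisons (panels), with the standard error of the fit as bars, filled points where the adjusted p was below 0.05 and dotted lines at a 2-fold change. Slc6a12 has the largest changes, at -4.05 for Pam3CSK4-labelled over untreated-labelled libraries and 3.85 for 3SL-labelled over Pam3CSK4-labelled libraries.

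The scaling of the libraries bears on these counts. TMM factors ran from 1.14 to 1.15 in the Pam3CSK4-labelled libraries and from 0.916 to 0.953 in the others, so they move with the groups. With library size alone in place of TMM scaling, the median gene shifted by 0.31, -0.27 and 0.04 on the log2 scale in the 3 comparisons. When all libraries were thinned to the same depth, with TMM scaling kept, it shifted by -0.003, 0.005 and 0.001. The share of called genes that were higher was 74.3% with library size alone for Pam3CSK4-labelled over untreated-labelled libraries, beside 52.0% with TMM scaling. For 3SL-labelled over Pam3CSK4-labelled libraries it was 27.6%, beside 48.5%, and for 3SL-labelled over untreated-labelled libraries 66.0%, beside 42.8%.

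By family, the summed level was highest in the Pam3CSK4-labelled libraries for Slc6, Slc38, Slc43 and Slc1. The 21 Slc6 genes summed to 601 to 654 CPM in the 3SL-labelled, 1086 to 1104 CPM in the Pam3CSK4-labelled and 639 to 660 CPM in the untreated-labelled libraries. The 11 Slc38 genes summed to 373 to 405, 524 to 542 and 370 to 395 CPM in the same order, and the 3 Slc43 genes to 178 to 217, 433 to 455 and 176 to 185 CPM. The 7 Slc1 genes summed to 35.3 to 38.6, 51.0 to 59.4 and 32.6 to 36.1 CPM. In each of these families the Pam3CSK4-labelled libraries did not overlap with the other groups. The Slc3 sum ran the other way, at 492 to 535 CPM in the 3SL-labelled, 358 to 375 CPM in the Pam3CSK4-labelled and 533 to 558 CPM in the untreated-labelled libraries, and is nearly all Slc3a2. The Slc7 sums overlapped, at 542 to 580, 551 to 604 and 567 to 590 CPM, and so did the Slc36 sums, at 135 to 137, 133 to 146 and 132 to 138 CPM. Over all 61 genes the sum was 2413 to 2519 CPM in the 3SL-labelled, 3186 to 3244 CPM in the Pam3CSK4-labelled and 2476 to 2529 CPM in the untreated-labelled libraries. These sums rest on the TMM factors given above, and without them each would stand higher in the Pam3CSK4-labelled libraries relative to the others. The sums were not repeated with library size alone, so the overlap of the Slc7 and Slc36 sums is given for TMM scaling only. A family sum is set by its most abundant members, which the next paragraphs give.

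**Figure D2:**
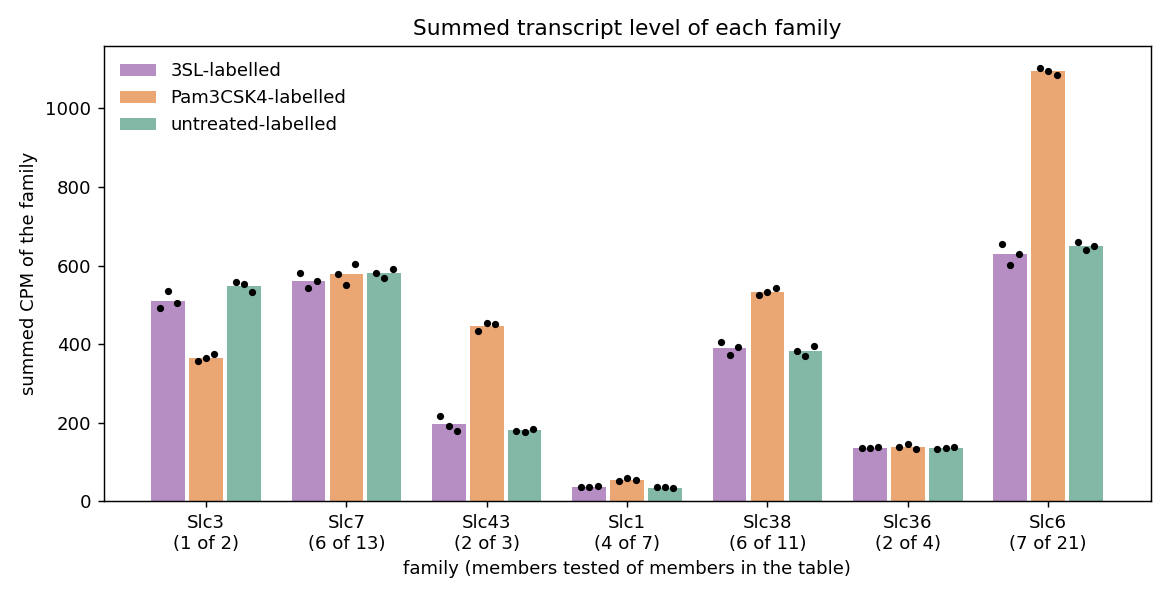
Summed level of each family (CPM, y axis) in each library (points), with bars from 0 to the group mean, for 3SL-labelled, Pam3CSK4-labelled and untreated-labelled libraries. With TMM scaling, the Slc6, Slc38, Slc43 and Slc1 sums are highest in the Pam3CSK4-labelled libraries, the Slc3 sum is lowest there, and the Slc7 and Slc36 sums overlap.

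Levels between genes were compared as CPM per kilobase of exon. Slc3a2, the heavy chain known as 4F2hc or CD98, had the highest mean over the 9 libraries, 134.6 CPM per kb. It was followed by Slc7a8, the light chain LAT2 for neutral amino acids, at 86.5 CPM per kb, and by Slc6a6, the taurine transporter, at 73.9 CPM per kb. These 3 genes held 62.3% of the summed level per kb of the tested transporters. The next were Slc6a8 (29.8 CPM per kb), Slc43a2 (26.1 CPM per kb) and Slc38a10 (22.5 CPM per kb). The order differed between groups. In the Pam3CSK4-labelled libraries Slc3a2 and Slc6a6 stood side by side at 104 and 101 CPM per kb, while Slc3a2 stood at 145 and Slc6a6 at 60.3 CPM per kb in the 3SL-labelled libraries, and at 155 and 60.8 CPM per kb in the untreated-labelled libraries.

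**Figure D3:**
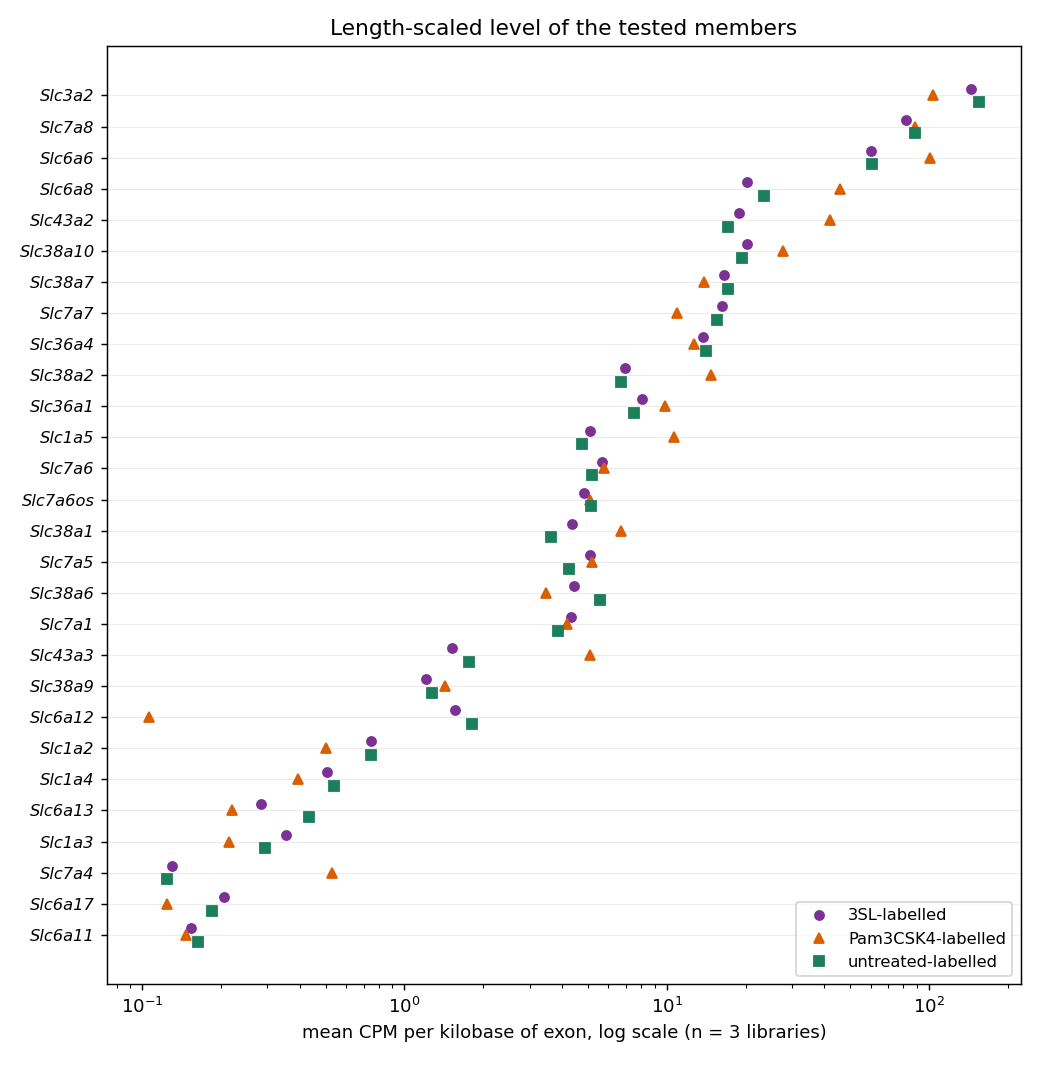
Mean level per kilobase of exon (CPM per kb, log axis) of 28 tested genes in the 3SL-labelled, Pam3CSK4-labelled and untreated-labelled libraries. Slc3a2, Slc7a8 and Slc6a6 lie at the top in each group, and the genes at the foot lie below 1 CPM per kb.

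The heavy chain was lower in the Pam3CSK4-labelled libraries than in both other groups. Of its tested light chains Slc7a5, Slc7a6, Slc7a7 and Slc7a8, only Slc7a7 was also called lower there than in the untreated-labelled libraries. Slc7a11, another light chain of Slc3a2, is not in the set. Slc3a2 (chromosome 19, 8706882 to 8723369, GRCm38) had 492, 534 and 505 CPM in the 3SL-labelled libraries (here and below in the order A2plus, B2plus and C2plus), 358, 365 and 375 CPM in the Pam3CSK4-labelled libraries (D1, D2 and D3) and 558, 554 and 533 CPM in the untreated-labelled libraries (A2, B2 and C2). Its log2 change was -0.58 ± 0.0345 (SE; adjusted p = 1.01e-14) for Pam3CSK4-labelled over untreated-labelled libraries, a level 1.5-fold lower, and 0.48 ± 0.0352 (adjusted p = 1.41e-12) for 3SL-labelled over Pam3CSK4-labelled libraries. All Pam3CSK4-labelled libraries lay below all others. Slc7a8 (chromosome 14, 54722209 to 54781946) had 424, 395 and 413 CPM in the 3SL-labelled, 445, 423 and 466 CPM in the Pam3CSK4-labelled and 444, 429 and 454 CPM in the untreated-labelled libraries. Its change was 0.01 ± 0.0369 (adjusted p = 0.871) for Pam3CSK4-labelled over untreated-labelled libraries. For 3SL-labelled over Pam3CSK4-labelled libraries it was called lower by a small amount, at -0.11 ± 0.0379 (adjusted p = 0.00921), and without D3 or B2plus the call was lost (adjusted p = 0.0817 and 0.0673). The highest 3SL-labelled library and the lowest Pam3CSK4-labelled library overlapped. With library size alone Slc7a8 was called 0.32 higher for Pam3CSK4-labelled over untreated-labelled libraries (adjusted p = 1.47e-08).

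Slc7a5 encodes LAT1, which carries large neutral amino acids such as leucine into the cell and is bound to the Slc3a2 heavy chain. It was called higher in the Pam3CSK4-labelled libraries (19.3 ± 1.32 CPM) than in the untreated-labelled ones (15.7 ± 1.21 CPM; SD, n = 3 each), with a log2 change of 0.28 ± 0.0856 (SE; adjusted p = 0.0049) that was no longer called when all libraries were thinned to the same depth (0.21, adjusted p = 0.0884). In the 3SL-labelled libraries it averaged 18.9 ± 1.32 CPM. Slc7a7, the y+LAT1 light chain that exchanges arginine and lysine for neutral amino acids and is mutated in human lysinuric protein intolerance, was lower in the Pam3CSK4-labelled libraries (36.2 ± 0.435 CPM) than in the untreated-labelled ones (51.8 ± 1.87 CPM), by -0.51 ± 0.0572 on the log2 scale (adjusted p = 6.56e-09). It averaged 54.0 ± 2.59 CPM in the 3SL-labelled libraries, 0.57 ± 0.0617 above the Pam3CSK4-labelled ones (adjusted p = 3.9e-09). Oxa1l lies on the other strand and shares 7.0% of the exon bases of Slc7a7, and since the strand setting of the counting is not given, reads from the overlap cannot be told apart. Slc7a6, which does the same exchange as y+LAT2, averaged 25.9, 26.4 and 23.8 CPM in the 3SL-labelled, Pam3CSK4-labelled and untreated-labelled groups and was called in no comparison with all libraries and TMM scaling. For Pam3CSK4-labelled over untreated-labelled libraries it was called higher by 0.20 without D2 (adjusted p = 0.0219) and by 0.45 with library size alone (adjusted p = 2.14e-06), and that scaling also called it lower, at -0.30 (adjusted p = 0.00141), for 3SL-labelled over Pam3CSK4-labelled libraries. Summed per kb, the 4 light chains Slc7a5, Slc7a6, Slc7a7 and Slc7a8 stood at 109 CPM per kb in the 3SL-labelled, 111 in the Pam3CSK4-labelled and 114 in the untreated-labelled libraries. Most of this sum is Slc7a8 (82.1, 88.8 and 88.4 CPM per kb in the same order), so it hides the change of Slc7a7. The heavy chain stood 28.4-fold above Slc7a5 per kb in the 3SL-labelled, 19.9-fold in the Pam3CSK4-labelled and 36.7-fold in the untreated-labelled libraries.

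Arginine can also enter through the CAT carriers. Slc7a1, which encodes the cationic amino acid carrier CAT1, averaged 49.9 ± 3.03 CPM in the 3SL-labelled, 48.0 ± 2.6 CPM in the Pam3CSK4-labelled and 44.4 ± 2.23 CPM in the untreated-labelled libraries (SD, n = 3 each) and was called in no comparison with TMM scaling. It was called higher for Pam3CSK4-labelled over untreated-labelled libraries with library size alone (0.42, adjusted p = 7.1e-07, beside 0.10 with TMM scaling). That scaling called it lower for 3SL-labelled over Pam3CSK4-labelled libraries (-0.22, adjusted p = 0.00383, beside 0.05 with TMM scaling). Slc7a4, a relative of the CAT carriers without an established substrate, had 0.422, 0.783 and 0.407 CPM in the 3SL-labelled, 2.16, 2.24 and 2.22 CPM in the Pam3CSK4-labelled and 0.633, 0.596 and 0.318 CPM in the untreated-labelled libraries. It was 3.90-fold higher in Pam3CSK4-labelled than in untreated-labelled libraries (log2 change 1.96 ± 0.303, SE; adjusted p = 1.69e-06). For 3SL-labelled over Pam3CSK4-labelled libraries its change was -1.99 ± 0.377 (adjusted p = 3.82e-05), on sums of 15 counts in the 3SL-labelled and 95 counts in the Pam3CSK4-labelled libraries. The Pam3CSK4-labelled libraries lay above all others, near the low end of what these depths can measure. P2rx6 on the other strand shares 13.3% of the exon bases of Slc7a4 and had at most 6 counts in any library. Slc7a6os, the gene that matched by name only, averaged 20.5, 21.6 and 21.8 CPM in the 3SL-labelled, Pam3CSK4-labelled and untreated-labelled groups and was called in no comparison with TMM scaling. Its log2 changes with library size alone were both called, at 0.31 for Pam3CSK4-labelled over untreated-labelled libraries (adjusted p = 0.000844, beside -0.00 with TMM scaling) and -0.35 for 3SL-labelled over Pam3CSK4-labelled libraries (adjusted p = 0.000984, beside -0.07).

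Both tested members of the Slc43 family were at least 2-fold higher in the Pam3CSK4-labelled libraries than in both other groups. Over all tested genes 13.2% were called at least 2-fold higher for Pam3CSK4-labelled over untreated-labelled libraries. For 3SL-labelled over Pam3CSK4-labelled libraries 12.5% were called at least 2-fold lower. Slc43a2 encodes LAT4, a facilitated carrier of large neutral amino acids (chromosome 11, 75531694 to 75577575). It had 210, 186 and 172 CPM in the 3SL-labelled, 411, 431 and 428 CPM in the Pam3CSK4-labelled and 171, 168 and 177 CPM in the untreated-labelled libraries. It was 2.47-fold higher in Pam3CSK4-labelled than in untreated-labelled libraries (log2 change 1.30 ± 0.0454, SE; adjusted p = 5.39e-20), and 2.25-fold lower in 3SL-labelled than in Pam3CSK4-labelled libraries (-1.17 ± 0.047, adjusted p = 2.02e-18). Every Pam3CSK4-labelled library lay far above the rest, and the 3SL-labelled and untreated-labelled libraries overlapped. Slc43a3, which sits in the same family but carries purine nucleobases, had 7.87, 6.46 and 6.00 CPM in the 3SL-labelled, 21.7, 23.4 and 23.2 CPM in the Pam3CSK4-labelled and 8.36, 8.0 and 7.32 CPM in the untreated-labelled libraries. It was 2.86-fold higher in Pam3CSK4-labelled than in untreated-labelled libraries (log2 change 1.52 ± 0.0931, adjusted p = 2.52e-14) and 3.42-fold lower in 3SL-labelled than in Pam3CSK4-labelled libraries (-1.77 ± 0.114, adjusted p = 7.96e-14). The antisense gene Gm45606 shares 9.18% of the exon bases of Slc43a2, where reads of the pair cannot be told apart. Slc43a1, which encodes LAT3, had at most 7 counts in any library and was not tested.

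Among the carriers of glutamine and small neutral amino acids, 4 of 11 could be tested. Of these, Slc1a5, Slc38a1 and Slc38a2 were called higher in the Pam3CSK4-labelled libraries than in the untreated-labelled ones, and Slc1a4 (ASCT1) was not called (log2 change -0.47, adjusted p = 0.117). In that comparison 39.0% of all tested genes were called higher. Without D2 Slc1a4 was called lower, at -0.81 (adjusted p = 0.0268). Slc1a5, the ASCT2 exchanger that brings in glutamine, had 22.8, 20.6 and 20.6 CPM in the 3SL-labelled, 41.3, 48.3 and 43.5 CPM in the Pam3CSK4-labelled and 18.2, 21.1 and 20.5 CPM in the untreated-labelled libraries. It was 2.21-fold higher in Pam3CSK4-labelled than in untreated-labelled libraries (log2 change 1.15 ± 0.0741, SE; adjusted p = 7.77e-14) and 2.1-fold lower in 3SL-labelled than in Pam3CSK4-labelled libraries (-1.07 ± 0.0835, adjusted p = 5.49e-12). The Pam3CSK4-labelled libraries stood apart from the other groups, which overlapped with each other. Slc38a2, the SNAT2 carrier that amino acid shortage induces in many cell types, had 65.2, 58.5 and 59.5 CPM in the 3SL-labelled, 133, 128 and 129 CPM in the Pam3CSK4-labelled and 62.5, 54.0 and 61.4 CPM in the untreated-labelled libraries. Its changes were 1.15 ± 0.0518 (adjusted p = 2.1e-17) for Pam3CSK4-labelled over untreated-labelled libraries and -1.10 ± 0.0565 (adjusted p = 5.93e-16) for 3SL-labelled over Pam3CSK4-labelled libraries. Again only the Pam3CSK4-labelled libraries stood apart.

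Slc38a1, which encodes the glutamine carrier SNAT1 and lies 44479 bases from Slc38a2 on chromosome 15, also differed between the 3SL-labelled and the untreated-labelled libraries. It had 85, 69.5 and 71.5 CPM in the 3SL-labelled, 112, 117 and 116 CPM in the Pam3CSK4-labelled and 60.4, 62.4 and 63.7 CPM in the untreated-labelled libraries. The 3 groups did not overlap, and A2plus was the highest of the 3SL-labelled libraries. Its log2 change was 0.89 ± 0.0522 (SE; adjusted p = 8.6e-15) for Pam3CSK4-labelled over untreated-labelled libraries, -0.62 ± 0.0557 (adjusted p = 8.83e-11) for 3SL-labelled over Pam3CSK4-labelled libraries and 0.27 ± 0.058 (adjusted p = 0.00272) for 3SL-labelled over untreated-labelled libraries. Slc1a4 averaged 1.99 ± 0.405 CPM in the 3SL-labelled, 1.54 ± 0.522 CPM in the Pam3CSK4-labelled and 2.12 ± 0.593 CPM in the untreated-labelled libraries (SD, n = 3 each). These groups overlapped.

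**Figure D4:**
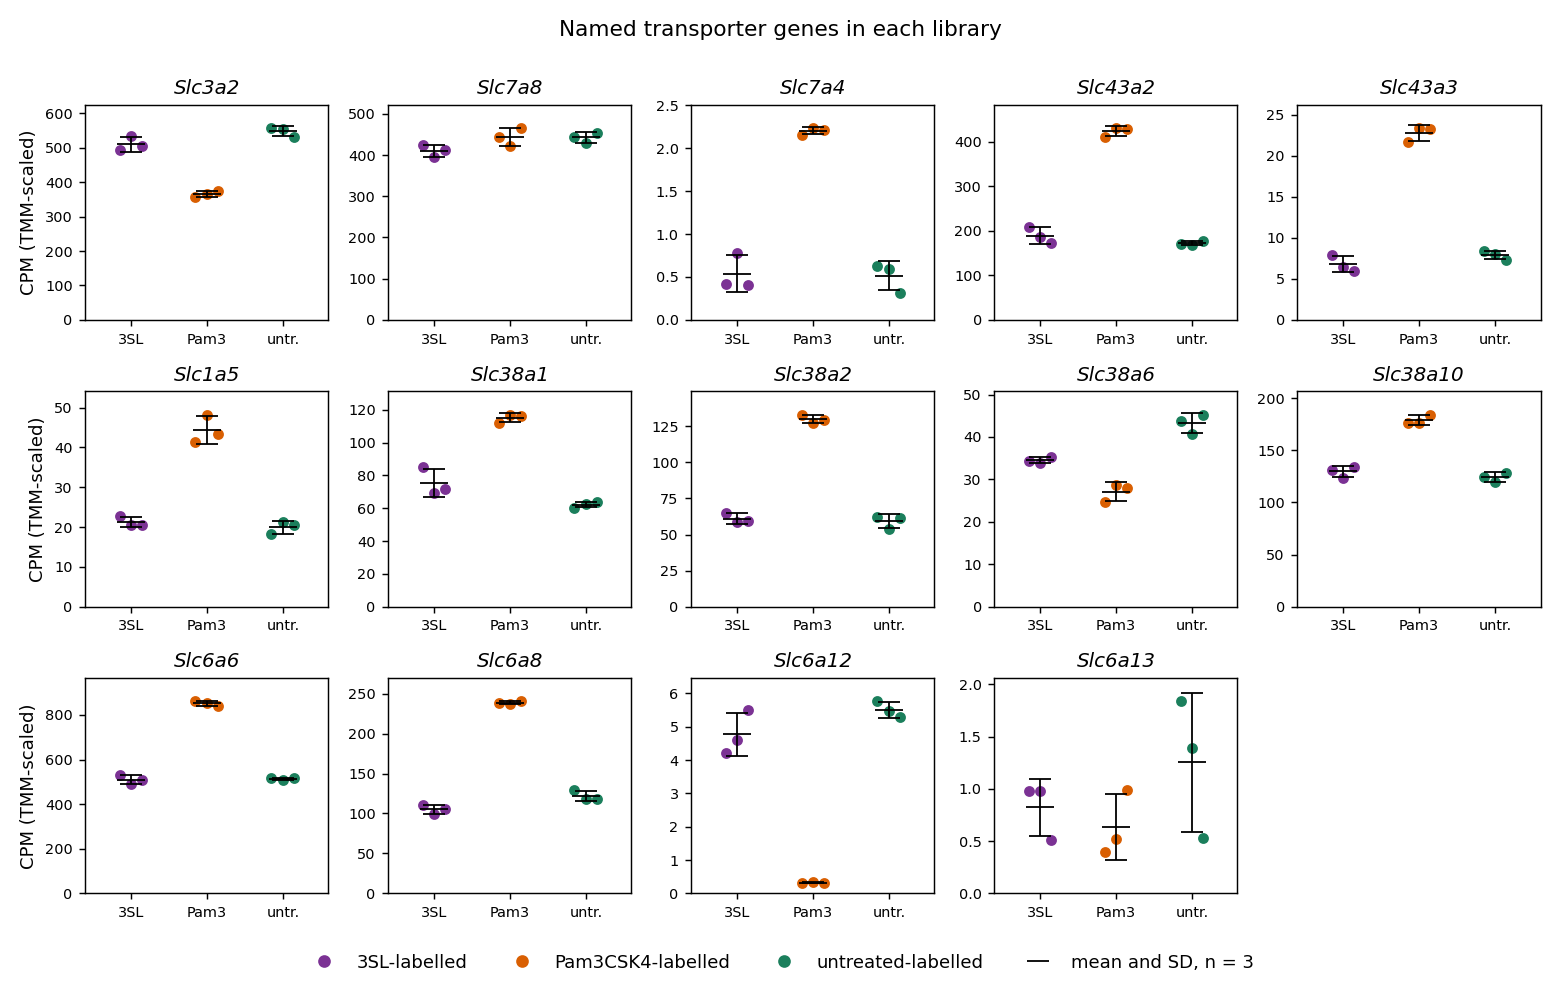
Level (CPM, y axis starting at 0) of 14 genes in each library (points) with group means and SD, for 3SL-labelled, Pam3CSK4-labelled and untreated-labelled libraries. Points of the Pam3CSK4-labelled group lie above the others for Slc43a2, Slc43a3, Slc1a5, Slc38a1, Slc38a2, Slc38a10, Slc6a6, Slc6a8 and Slc7a4, and below them for Slc3a2, Slc38a6 and Slc6a12.

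Lysosomal and proton-coupled carriers changed by less than 1.5-fold and in both directions. Of 4 tested, Slc36a1 and Slc38a9 were called higher and Slc36a4 and Slc38a7 lower in Pam3CSK4-labelled than in untreated-labelled libraries. The shares of all tested genes called in that comparison were 39.0% higher and 35.9% lower. Slc36a1, the proton-coupled carrier PAT1 of small amino acids, averaged 45.4 ± 2.57 CPM in the 3SL-labelled, 55.4 ± 3.23 CPM in the Pam3CSK4-labelled and 42.3 ± 1.89 CPM in the untreated-labelled libraries (SD, n = 3 each), with a log2 change of 0.39 ± 0.0598 (SE; adjusted p = 1.72e-06) for Pam3CSK4-labelled over untreated-labelled libraries. Slc38a7, which exports glutamine and asparagine from lysosomes, averaged 68.8 ± 1.21, 57.4 ± 1.25 and 71.4 ± 2.62 CPM in the 3SL-labelled, Pam3CSK4-labelled and untreated-labelled groups. Its change of -0.32 ± 0.0476 (adjusted p = 1.19e-06) was 0.00 (adjusted p = 0.969) with library size alone. For 3SL-labelled over Pam3CSK4-labelled libraries it was 0.26 ± 0.0519 (adjusted p = 7.16e-05), and -0.01 with library size alone. Slc36a4, the PAT4 carrier of proline and tryptophan, averaged 90.3 ± 3.65 CPM in the 3SL-labelled, 83.5 ± 4.19 CPM in the Pam3CSK4-labelled and 92.7 ± 2.42 CPM in the untreated-labelled libraries. Its changes of -0.14 (adjusted p = 0.00742) for Pam3CSK4-labelled over untreated-labelled libraries and 0.11 (adjusted p = 0.049) for 3SL-labelled over Pam3CSK4-labelled libraries turned to 0.17 and -0.16 with library size alone. The first was lost without D3 (adjusted p = 0.0751), and the second in 8 alternatives. Slc38a9, the lysosomal arginine sensor that signals to mTORC1, averaged 20.2 ± 1.05, 23.9 ± 2.12 and 21.4 ± 1.64 CPM in the 3SL-labelled, Pam3CSK4-labelled and untreated-labelled groups. Its change of 0.20 ± 0.0801 (adjusted p = 0.0278) was lost in 6 alternatives, among them those without B2, D2 or D3 (adjusted p = 0.243, 0.162 and 0.0771).

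The Slc38 members with little known function differed in direction. Slc38a10 had 131, 123 and 134 CPM in the 3SL-labelled, 176, 176 and 184 CPM in the Pam3CSK4-labelled and 125, 120 and 128 CPM in the untreated-labelled libraries. Its log2 change was 0.53 ± 0.0411 (SE; adjusted p = 3.8e-12) for Pam3CSK4-labelled over untreated-labelled libraries and -0.47 ± 0.0435 (adjusted p = 2.34e-10) for 3SL-labelled over Pam3CSK4-labelled libraries. The Pam3CSK4-labelled libraries lay above the other groups, which overlapped. Slc38a6 had 34.4, 33.9 and 35.4 CPM in the 3SL-labelled, 24.6, 28.7 and 28 CPM in the Pam3CSK4-labelled and 43.7, 40.8 and 45.3 CPM in the untreated-labelled libraries. The 3SL-labelled libraries lay between the other groups, with no overlap. Its log2 change was -0.65 ± 0.0683 (adjusted p = 1.77e-09) for Pam3CSK4-labelled over untreated-labelled libraries, 0.34 ± 0.0767 (adjusted p = 2.53e-04) for 3SL-labelled over Pam3CSK4-labelled libraries and -0.31 ± 0.0712 (adjusted p = 0.00457) for 3SL-labelled over untreated-labelled libraries. With library size alone the second of these was 0.07 and not called (adjusted p = 0.412).

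Glutamate carriers were scarce. Slc1a2, the carrier GLT-1 known for clearing glutamate at brain synapses, averaged 9.80 ± 2.56 CPM in the 3SL-labelled, 6.62 ± 0.203 CPM in the Pam3CSK4-labelled and 9.81 ± 2.08 CPM in the untreated-labelled libraries (SD, n = 3 each). It was called lower for Pam3CSK4-labelled over untreated-labelled libraries (log2 change -0.60 ± 0.146, SE; adjusted p = 0.0006) and higher for 3SL-labelled over Pam3CSK4-labelled libraries (0.58 ± 0.166, adjusted p = 0.00277). With library size alone neither change was called (adjusted p = 0.0732 and 0.0891), and without C2plus, which had the highest level of its group, the second was 0.35 (adjusted p = 0.0827). Slc1a3, the related carrier GLAST, averaged 3.01 ± 0.199 CPM in the 3SL-labelled, 1.82 ± 0.136 CPM in the Pam3CSK4-labelled and 2.51 ± 0.0636 CPM in the untreated-labelled libraries. It was called higher for 3SL-labelled over Pam3CSK4-labelled libraries (adjusted p = 0.00916), but not with library size alone (0.0929) or after thinning (0.085), and with DESeq2 size factors also for Pam3CSK4-labelled over untreated-labelled libraries (-0.49, adjusted p = 0.0414).

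Among the Slc6 carriers, those of taurine and creatine were higher and that of betaine was lower in the Pam3CSK4-labelled libraries. Slc6a6, which takes up taurine, an osmolyte, had 531, 490 and 509 CPM in the 3SL-labelled, 861, 853 and 840 CPM in the Pam3CSK4-labelled and 516, 509 and 518 CPM in the untreated-labelled libraries. It was 1.66-fold higher in Pam3CSK4-labelled than in untreated-labelled libraries (log2 change 0.73 ± 0.0315, SE; adjusted p = 8.8e-18) and 1.67-fold lower in 3SL-labelled than in Pam3CSK4-labelled libraries (-0.74 ± 0.0322, adjusted p = 1.13e-17). The Pam3CSK4-labelled libraries lay above the rest, and the other groups overlapped. Slc6a8, which takes up creatine for the phosphocreatine store of energy (chromosome X, 73673150 to 73682502), had 111, 99.3 and 106 CPM in the 3SL-labelled, 238, 237 and 240 CPM in the Pam3CSK4-labelled and 130, 118 and 119 CPM in the untreated-labelled libraries. Levels were highest in D1 to D3 and lowest in the 3SL-labelled libraries, with no overlap. Its change was 0.97 ± 0.0423 (adjusted p = 1.07e-17) for Pam3CSK4-labelled over untreated-labelled libraries, -1.19 ± 0.0457 (adjusted p = 7.37e-19) for 3SL-labelled over Pam3CSK4-labelled libraries and -0.22 ± 0.0472 (adjusted p = 0.00266) for 3SL-labelled over untreated-labelled libraries.

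Slc6a12 encodes BGT1, a carrier of betaine and GABA that kidney cells use to take up betaine as an osmolyte. It showed the largest change of any tested member in the Pam3CSK4-labelled libraries, and its neighbour Slc6a13, the carrier GAT2 of GABA and taurine, ends 5343 bases before it on chromosome 6. Their RefSeq promoter windows (GRCm38.p6, 250 bases before to 50 after an annotated start, plus strand) are shown because 1 of the 5 windows of Slc6a12 and 1 of the 3 of Slc6a13 hold a form of the kappaB motif bound by NF-kappaB, 10 bases long with any base at the fifth place, which was searched on both strands and is in capitals, while the other windows of these genes hold none. Of the 2 windows of Slc43a2, in which none of the 3 motifs searched was found, 1 is shown beside them. The windows are chr6:121342324-121342623 for Slc6a12, chr6:121303389-121303688 for Slc6a13 and chr11:75531444-75531743 for Slc43a2.
Slc6a12: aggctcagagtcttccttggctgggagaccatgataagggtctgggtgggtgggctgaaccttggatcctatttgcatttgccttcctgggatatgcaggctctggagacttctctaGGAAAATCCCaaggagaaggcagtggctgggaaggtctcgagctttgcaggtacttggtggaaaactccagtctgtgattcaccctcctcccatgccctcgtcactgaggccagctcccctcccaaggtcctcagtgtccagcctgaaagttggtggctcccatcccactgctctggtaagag
Slc6a13: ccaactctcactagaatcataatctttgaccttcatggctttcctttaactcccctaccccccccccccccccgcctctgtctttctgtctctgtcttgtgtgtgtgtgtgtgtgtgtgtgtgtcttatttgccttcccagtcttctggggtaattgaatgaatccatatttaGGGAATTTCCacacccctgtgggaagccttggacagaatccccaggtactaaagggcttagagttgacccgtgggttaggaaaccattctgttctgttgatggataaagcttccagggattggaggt
Slc43a2: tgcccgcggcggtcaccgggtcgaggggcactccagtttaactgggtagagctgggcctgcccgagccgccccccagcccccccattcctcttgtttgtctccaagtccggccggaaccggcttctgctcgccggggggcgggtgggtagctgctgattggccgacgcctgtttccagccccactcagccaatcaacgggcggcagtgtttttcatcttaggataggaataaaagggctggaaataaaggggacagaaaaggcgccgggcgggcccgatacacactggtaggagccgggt

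The kappaB match begins 133 bases before the start in the Slc6a12 window, on the minus strand, and 77 bases before it in the Slc6a13 window, on the plus strand. Of the tested members, 21 had windows in the RefSeq table, 35 in all since a gene can have several starts. Slc1a5, Slc38a1, Slc43a3, Slc6a6, Slc6a8, Slc7a4 and Slc7a5, all called higher for Pam3CSK4-labelled over untreated-labelled libraries, had no window. The 2 windows above were the only ones with a kappaB match (5.71%), beside 0.411% of all 32851 windows, and they belong to neighbouring genes. That of Slc6a13 lies inside the annotated gene, which begins at 121300227. Windows of Slc1a2, Slc3a2, Slc36a4, Slc38a6, Slc38a7 and Slc7a7, genes also called lower in that comparison, held no kappaB match. The E-box CACGTG, read by MYC and by the lysosomal regulator TFEB among others, was in 2 of the 35 windows (5.71%), those of Slc36a1 and Slc38a7, beside 7.15% of all windows. The amino acid response letters TGATGNAA, a form bound by ATF4, were in 3 of the 35 (8.57%), 1 of Slc1a4 and the others of Slc7a7, beside 3.97% of all windows. The Slc7a7 windows with a match overlap and share 1 of these sites, which is counted in both. A match describes the letters only, and its absence says only that these letters are not in that window.

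Slc6a12 had 4.22, 4.6 and 5.49 CPM in the 3SL-labelled, 0.320, 0.344 and 0.306 CPM in the Pam3CSK4-labelled and 5.76, 5.47 and 5.30 CPM in the untreated-labelled libraries, on sums of 131, 14 and 361 counts. The Pam3CSK4-labelled libraries were close to the level of 3 counts, and the other groups overlapped. The ratio of the counts, scaled by the TMM-scaled library sizes, put the Pam3CSK4-labelled libraries 16.9-fold below the untreated-labelled ones (exact 95% counting interval 9.97 to 31.3). The fitted log2 change was -4.05 ± 0.265 (SE; adjusted p = 1.04e-13). The 3SL-labelled libraries lay 14.8-fold above the Pam3CSK4-labelled ones (interval 8.52 to 27.8), with a log2 change of 3.85 ± 0.298 (adjusted p = 4.62e-12). Slc6a13 had 0.984, 0.979 and 0.508 CPM in the 3SL-labelled, 0.400, 0.517 and 0.993 CPM in the Pam3CSK4-labelled and 1.84, 1.39 and 0.530 CPM in the untreated-labelled libraries. All 3 groups overlapped, and D3 and C2 lay with the libraries of the other groups. It was called lower for Pam3CSK4-labelled over untreated-labelled libraries (-1.10 ± 0.393, adjusted p = 0.0137). The call was lost without A2, B2, D1 or D2 (adjusted p = 0.0671, 0.0561, 0.0658 and 0.075), with DESeq2 (0.0895) and with library size alone (0.0701).

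Other Slc6 genes were near the detection limit. Slc6a17, a vesicle carrier of neutral amino acids, averaged 2.1 ± 0.239 CPM in the 3SL-labelled, 1.28 ± 0.294 CPM in the Pam3CSK4-labelled and 1.89 ± 0.507 CPM in the untreated-labelled libraries (SD, n = 3 each). It was called higher for 3SL-labelled over Pam3CSK4-labelled libraries (0.73, adjusted p = 0.0416), a call lost in 8 alternatives, among them those without D1, D2, A2plus or C2plus (adjusted p = 0.0787, 0.153, 0.0714 and 0.133). Slc6a11, a GABA carrier, stood at 0.771, 0.740 and 0.825 CPM in the 3SL-labelled, Pam3CSK4-labelled and untreated-labelled groups and was called in no comparison.

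Between the 3SL-labelled and the untreated-labelled libraries 3 members were called, each described above. Slc38a1 was higher by 0.27 on the log2 scale, and Slc38a6 and Slc6a8 were lower, by -0.31 and -0.22, with no overlap between groups. In this comparison 24% of all tested genes and 9 of the 29 tested members did not overlap. Slc3a2 was not called in the main fit (-0.10, adjusted p = 0.061) but was in 5 alternatives. Among them were DESeq2 (-0.11, adjusted p = 0.0294) and the fit without B2plus (-0.14, adjusted p = 0.0144). Slc43a2 (0.14, adjusted p = 0.0823 in the main fit) was called in 3 alternatives, among them that without C2plus (0.20, adjusted p = 0.00516). Slc7a8 was called lower without a filter on low counts (-0.12, adjusted p = 0.0223) and after thinning (-0.13, adjusted p = 0.0365). Slc7a5 was called higher with library size alone (0.29, adjusted p = 0.0473).

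The 33 members that were not tested were all rare. Of these, 8 had 0 counts in all 9 libraries (Slc1a7, Slc38a8, Slc6a2, Slc6a14, Slc6a18, Slc6a21, Slc7a9 and Slc7a12), which allows at most 0.0746 CPM in the deepest library and 0.422 CPM in the shallowest. Another 9 had a highest count of 1 to 3 in any library, and 16 had more, up to 24 counts in Slc7a14. Among these were genes with set places in other tissues: the serotonin carrier Slc6a4 reached 13 counts, the glycine carrier Slc6a9 20, the kidney and gut carrier Slc6a19 8, and the glutamine carrier Slc38a3 12. Slc3a1, the heavy chain of the kidney cystine carrier, had at most 1 count, and its light chain Slc7a9 had 0. The other CAT carrier in the set, Slc7a3, had at most 7 counts.

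Genes around amino acid supply were counted in the same way, and each count below is to be read against the shares of all tested genes, 39.0% called higher and 35.9% called lower for Pam3CSK4-labelled over untreated-labelled libraries, and 34.7% and 36.8% for 3SL-labelled over Pam3CSK4-labelled libraries. Of 23 tested genes of amino acid sensing by mTORC1, 14 were called higher and 2 lower for Pam3CSK4-labelled over untreated-labelled libraries (median log2 change 0.43), and 1 was called higher and 16 lower for 3SL-labelled over Pam3CSK4-labelled libraries (median -0.41). Rragd, a Rag GTPase that brings mTORC1 to the lysosome, averaged 4.33 CPM in the 3SL-labelled, 34.4 CPM in the Pam3CSK4-labelled and 3.72 CPM in the untreated-labelled libraries, with a log2 change of 3.11 ± 0.103 (SE; adjusted p = 1.67e-20) for Pam3CSK4-labelled over untreated-labelled libraries. Sesn1, a member of the sestrin family of mTORC1 inhibitors, and Fnip2, a partner of folliculin, changed by 1.68 ± 0.0613 and 1.56 ± 0.0488 in the same comparison (adjusted p = 1.71e-19 and 4.87e-21). Of 11 tested enzymes of glutamine and glutamate, 8 were higher and 2 lower for Pam3CSK4-labelled over untreated-labelled libraries (median 0.53). Got1, which exchanges amino groups between aspartate and glutamate, averaged 30 CPM in the 3SL-labelled, 79.3 CPM in the Pam3CSK4-labelled and 30 CPM in the untreated-labelled libraries (log2 change 1.40 ± 0.0592, adjusted p = 4.94e-18). Gclc, of the glutathione pathway, and Glul, glutamine synthetase, changed by 0.68 ± 0.0478 and 0.53 ± 0.0408 (adjusted p = 5.14e-13 and 3.65e-12).

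Targets of ATF4, the factor of the amino acid response, were called both ways: of 20 tested, 7 were higher and 11 lower for Pam3CSK4-labelled over untreated-labelled libraries (median log2 change -0.20), beside 39.0% and 35.9% of all tested genes. Those named by smallest p were lower. Cebpb, a factor of myeloid and inflammatory genes, averaged 202 CPM in the 3SL-labelled, 22.2 CPM in the Pam3CSK4-labelled and 220 CPM in the untreated-labelled libraries (log2 change -3.31 ± 0.064, SE; adjusted p = 5.82e-26). Nupr1, a stress factor, and Eif4ebp1, a repressor of translation, changed by -3.10 ± 0.0885 and -1.34 ± 0.0573 (adjusted p = 5.11e-22 and 6.45e-18). Of 20 tested aminoacyl-tRNA synthetases, which load amino acids onto tRNA, 11 were higher and 7 lower (median 0.11), and none by 2-fold, a count of lower genes near the share over all genes. Vars changed by 0.83, Farsa by -0.38 and Kars by -0.36 (adjusted p = 1.58e-15, 3.02e-08 and 1.44e-07). Of 16 tested amino acid transporters of other families, 5 were higher and 6 lower (median -0.10), both near the shares over all genes. Slc15a3, a lysosomal carrier of histidine and small peptides, averaged 1403 CPM in the 3SL-labelled, 380 CPM in the Pam3CSK4-labelled and 1527 CPM in the untreated-labelled libraries (log2 change -2.01 ± 0.0317, adjusted p = 5.44e-28). Mfsd12, needed for cysteine import into lysosomes, changed by 1.95 ± 0.0473 (adjusted p = 1.26e-23). Slc16a10, a carrier of aromatic amino acids, changed by -1.41 ± 0.04 (adjusted p = 4.32e-22), and it was also lower in the 3SL-labelled (338 CPM) than in the untreated-labelled libraries (426 CPM), by -0.33 ± 0.0389 (adjusted p = 8.83e-07).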

How the data were processed

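The measure was RNA sequencing of 9 libraries, 3 for each of the 3 groups, as the labels give them. Raw counts per gene were used as deposited by the authors in 1 table. HISAT2 2.1.0, featureCounts and Subread are named in the submitters' processing notes, with no role or order. The notes also name hg38, although the gene identifiers are those of mouse Ensembl genes, so the build is not settled, and the sources used here give no strand setting. A further 15 columns hold other samples and were left out. Symbols were found for 21909 of 22001 identifiers, and exon lengths and coordinates are those of GENCODE M21 on GRCm38. The counting may have used another annotation, so levels per kb are approximate.

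The test was run in edgeR 4.0.16 (R 4.3.3). The filter was filterByExpr by group (11469 genes kept, 52.1%), library sizes were TMM-scaled, and all 9 libraries entered 1 fit with group means. The pairs of groups were compared with the quasi-likelihood test, with Benjamini-Hochberg adjustment over all tested genes and a threshold of 0.05. The common dispersion was 0.00133, a coefficient of variation of 0.0365. On simulated counts for the Pam3CSK4-labelled against the untreated-labelled comparison (11279 genes) the test recovered 185 of 200 genes changed 2-fold (92.5%), with 18 false calls. Only these 200 genes were changed, evenly up and down, and the counts were drawn from the fitted dispersion. The simulation therefore cannot check the TMM scaling where many genes change. Intervals and floors cover counting error only.

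The members and lists were chosen with earlier results of these data known. Named with values in every library are members that changed at least 2-fold in a called comparison, the 6 with the highest level per kb, Slc3a2, and those called for 3SL-labelled over untreated-labelled libraries. From each other list the 3 genes with the smallest p for Pam3CSK4-labelled over untreated-labelled libraries were taken. The values of 1 tested member, which stays in the counts and sums, are not reported here. The motifs were searched in 300-base RefSeq promoter windows. Alternatives were other scalings and filters, thinning to 7472482 counts, edgeR's glmTreat against 1.5-fold, DESeq2 1.42.0, fits of 2 groups, a block by code letter, and leaving out each library.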

Additional observations from a re-analysis of the deposited data

How the results depend on the processing

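Results of the tested members were counted over the alternatives other than glmTreat. For Pam3CSK4-labelled over untreated-labelled libraries 435 of 462 kept their side of the threshold, with no change of sign in a called result. The same held for 427 of 461 for 3SL-labelled over Pam3CSK4-labelled libraries, and 467 of 478 for 3SL-labelled over untreated-labelled libraries. A change of sign in a result that was not called either way, as for Slc6a11, was not counted as a move. With library size alone in place of TMM scaling, the counts for Pam3CSK4-labelled over untreated-labelled libraries were 8 at least 2-fold higher (5 with TMM scaling), 4 lower (8) and 1 at least 2-fold lower (2). For 3SL-labelled over Pam3CSK4-labelled libraries they were 4 higher (10) and 1 at least 2-fold higher (2), and for 3SL-labelled over untreated-labelled libraries 3 higher (1). Library size alone also turned Slc36a4 (0.17 and -0.16 in the first 2 comparisons), Slc7a6os (0.31 in the first), and Slc38a7 and Slc7a1 (-0.01 and -0.22 in the second). Against a 1.5-fold threshold, glmTreat called 1 lower in the first comparison, 2 higher and 7 lower in the second, and 0 higher and 0 lower in the third, where the quasi-likelihood test called 3. Both thinning and DESeq2 gave 1 at least 2-fold lower in the first comparison. Without a filter on low counts, 2 were higher and 4 lower for 3SL-labelled over untreated-labelled libraries. Leaving out each library gave 1 to 2 at least 2-fold lower in the first comparison, 1 to 2 at least 2-fold higher in the second and 1 to 2 higher in the third. The cause of these moves was not tested, except that a minimum fold in the test removes small changes by construction.

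The code letters A, B and C occur in the 3SL-labelled and the untreated-labelled groups, but same-letter libraries correlated at only 0.005, 0.08 and -0.028 in their deviations from the group means, so the letters were not taken to pair them. With a replicate block by letter, 1 member was higher and 2 were lower for 3SL-labelled over untreated-labelled libraries, as without it. The depth of the 3SL-labelled libraries and the low counts of Slc6a11, Slc6a13, Slc6a12 and Slc7a4 limit how small a change could be seen. Over all tested genes, the comparison of 3SL-labelled with untreated-labelled libraries gave 439 higher and 586 lower, and 282 and 503 with DESeq2.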
